A study of Mus musculus with 4 samples.

Results

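The heat shock proteins and their cochaperones were followed across the 4 arrays of this mouse series, together with Cirbp and Rbm3, RNA-binding proteins induced by mild cold, as a contrast. Members were chosen by symbol: Hspa, Hspb, Hspd, Hspe, Hsph, Dnaja or Dnajb followed by a digit, any name starting with Hsp90, and Bag3, Cirbp and Rbm3. This gave 45 genes of 18194 and 103 probe sets of 45101, and 2 further probe sets are listed for both Rbm3 and its pseudogene Rbm3-ps. Hsf1, also on the list, and Hsp90ab1 are not analysed here. Total RNA from the whole small intestine was pooled within each group of C57BL/6 mice and each pool was run on 1 Affymetrix Mouse 430 2.0 array. CF + lubiprostone mice were Cftr null (cftr-tm1Unc) and received lubiprostone by daily gavage at 10 µg per kg for 2 weeks, and CF control mice had the same genotype and no lubiprostone. WT + lubiprostone and WT control mice were wild type, with and without the same treatment. Every group was fed a liquid diet (Peptamen), given because CF mice can die of intestinal obstruction. The design text gives 8, 10, 7 and 10 mice for the pools of CF + lubiprostone, CF control, WT + lubiprostone and WT control, and the study's methods give fewer for the last pool. The null allele is carried in every cell of the animal. Whether control mice were gavaged with the diet alone is not given in the sources used here.

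Heat shock proteins are chaperones that bind unfolded proteins. HSP70s hold them in a cycle that uses ATP. J proteins (the Dnaj genes) deliver unfolded proteins and start ATP cleavage, and exchange factors such as Hsph1 release the product. HSP90 finishes selected clients, the Hspd1 and Hspe1 proteins form a folding chamber in mitochondria, and Hspa5 and Hsp90b1 serve the endoplasmic reticulum (ER). The heat-inducible genes of the cytosol, with Hspa1a and Hspa1b first, are switched on by heat shock factor binding to heat shock elements in their promoters, while Cirbp and Rbm3 respond to a fall in temperature.

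Promoters are shown because the genes with the lowest ratios below are inducible ones. Windows from 250 bases before to 50 bases after the annotated start were taken from RefSeq (GRCm38.p6), and 40 of the 45 members matched by symbol. Hspa8, Hspa9, Hspa13, Hsp90aa1 and Hspb2 had no entry. The bases upstream of the start are printed 5′ to 3′ on the gene's strand, with each match to a 2-unit heat shock element (GAANNTTC or TTCNNGAA) in capitals. Hspa1a (chr17:34972157-34972406, minus strand), Hspa1b (chr17:34959239-34959488, minus strand) and Hsph1 (chr5:149636337-149636586, minus strand) read as follows.
Hspa1a: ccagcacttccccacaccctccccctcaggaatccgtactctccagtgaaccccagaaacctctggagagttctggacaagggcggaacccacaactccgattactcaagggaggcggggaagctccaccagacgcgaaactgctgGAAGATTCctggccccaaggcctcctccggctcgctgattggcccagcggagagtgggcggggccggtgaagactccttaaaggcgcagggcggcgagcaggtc
Hspa1b: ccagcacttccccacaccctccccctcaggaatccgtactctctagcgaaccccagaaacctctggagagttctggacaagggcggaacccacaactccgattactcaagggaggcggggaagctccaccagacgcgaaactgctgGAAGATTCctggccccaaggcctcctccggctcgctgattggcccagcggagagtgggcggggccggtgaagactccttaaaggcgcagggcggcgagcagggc
Hsph1: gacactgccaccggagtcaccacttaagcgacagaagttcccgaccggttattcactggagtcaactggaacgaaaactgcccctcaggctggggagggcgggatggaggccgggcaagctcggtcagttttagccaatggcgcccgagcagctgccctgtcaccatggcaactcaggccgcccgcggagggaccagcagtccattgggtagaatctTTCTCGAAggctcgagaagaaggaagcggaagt
The upstream sequences of Hspa1a and Hspa1b are identical at 247 of 250 bases, and their match lies 104 to 97 bases before the start in both. The 2-unit letters were found in 14 of the 40 member genes (35%) and in 17% of all 27025 genes with a window, on either strand. The 14 were Bag3, Dnaja1, Dnaja4, Dnajb4, Dnajb6, Hspa1a, Hspa1b, Hspb1, Hspb3, Hspb6, Hspb8, Hspd1, Hspe1 and Hsph1. With lubiprostone in CF, Bag3, Dnajb6 and Hspb8 had ratios above 1, Dnaja4 and Hspb3 had no ratio, and the rest had ratios below 1. A 3-unit element (GAA and TTC alternating, with 2 free bases between units, on either strand), which contains the 2-unit one, was found in 4 member genes, Dnajb6, Hspd1, Hspe1 and Hsph1, against 0.662% of all genes. In Hsph1 this match lies after the start. Hspd1 and Hspe1 are neighbours read in opposite directions, and their windows hold the same match, shown here as the 30 bases at chr1:55088053-55088082 (plus strand) with the 3-unit letters in capitals.
Hspe1: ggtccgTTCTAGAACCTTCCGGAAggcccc
The ER stress element (CCAAT followed by CCACG after 9 free bases, on either strand) was found in 2 members, Hspa5 and Hsp90b1, and in 0.137% of all genes. It is in capitals in the upstream bases of Hspa5 (chr2:34771840-34772089, plus strand) and Hsp90b1 (chr10:86705445-86705694, minus strand), for which 1 and 2 matches were found.
Hspa5: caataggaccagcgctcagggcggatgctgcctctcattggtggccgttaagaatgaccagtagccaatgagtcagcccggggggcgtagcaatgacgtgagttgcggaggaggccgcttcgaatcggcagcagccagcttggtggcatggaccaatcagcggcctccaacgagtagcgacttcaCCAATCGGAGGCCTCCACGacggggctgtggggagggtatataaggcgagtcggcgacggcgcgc
Hsp90b1: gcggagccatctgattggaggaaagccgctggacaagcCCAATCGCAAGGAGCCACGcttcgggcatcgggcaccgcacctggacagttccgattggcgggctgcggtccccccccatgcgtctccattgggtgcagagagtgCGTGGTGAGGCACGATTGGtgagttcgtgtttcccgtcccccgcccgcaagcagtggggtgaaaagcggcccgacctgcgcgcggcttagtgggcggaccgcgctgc
A match is a description of letters, and binding was not measured.

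The deposited values are signals, brightness in arbitrary units with the probes of a probe set summed up, already scaled to the same trimmed mean on each array. Probe sets that stayed under the median of every array (109 to 124) were set aside. The log2 ratios of a gene's kept probe sets were averaged, and a ratio was used only if one of them reached the median on either array compared. With 1 array per group no test was possible, so ratios have no replicate check and members are counted at 1.5-fold, with the study's 3-fold threshold beside it. As a measure of spread within arrays only, the SD of the log2 ratio between probe sets of one gene had a median of 0.20 to 0.26 over the comparisons. Of the 45 members 38 passed the filter. Dnajb3, Dnajb7, Dnajb13, Hspa1l, Hspa12b, Hspb3 and Hspb9 did not, and the highest signal among them was 117, for Dnajb3 in CF + lubiprostone. In pooled tissue, fewer cells of a type and less RNA per cell cannot be told apart. The enterocyte markers that define this tissue were bright, with summed signals of 254378 in CF + lubiprostone, 226932 in CF control, 302142 in WT + lubiprostone and 280988 in WT control over the 8 of 9 listed genes with a probe set. Xist, from the inactive X chromosome, had a log2 ratio of 1.67 in WT + lubiprostone over WT control and of 0.57 in CF + lubiprostone over CF control. The Y-linked genes Eif2s3y, Uty and Kdm5d had -0.58, -0.65 and -0.43 in WT, and -0.14, -0.18 and 0.0088 in CF. In CF control over WT control Xist had 1.14, and these Y-linked genes had -0.49, -0.20 and -0.56. The part of the sex makeup of the pools in the results was not tested. Scaling the arrays to the same median moved the median log2 ratio of all genes in CF control over WT control to 0.16, against -0.017 as deposited. It moved that of CF + lubiprostone over CF control to -0.12, against 0.013 as deposited.

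Hspa1a, Hspa1b and Hsph1 had low signals in lubiprostone-treated mice of both genotypes. Hspa1a and Hspa1b, the inducible HSP70s, and Hsph1, the HSP110 exchange factor, were the only members at least 3-fold lower, and they were so in both genotypes. Hsp90aa1, the inducible cytosolic HSP90, was 1.73-fold lower with treatment in CF and 1.52-fold lower in WT. Other heat-inducible members differed less, with ratios of 0.749 in CF and 0.760 in WT for Dnajb1, 0.864 and 0.834 for Hspb1, and 1.02 and 0.998 for Bag3. Cirbp went the other way, 4.51-fold higher in CF and 2.48-fold higher in WT.

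Hspa1a had signals of 231 in CF + lubiprostone and 916 in CF control, and of 177 in WT + lubiprostone and 646 in WT control, from 1 probe set. Both treated pools lay below both control pools, 3.97-fold in CF and 3.66-fold in WT. Hspa1b has 3 probe sets. The brightest, 1452318_a_at, had 641 in CF + lubiprostone and 4538 in CF control, and 649.8 in WT + lubiprostone and 2437 in WT control. On 1427127_x_at the signals were 523 in CF + lubiprostone and 2004 in CF control, and 342 in WT + lubiprostone and 1565 in WT control. On 1427126_at they were 345 in CF + lubiprostone and 1528 in CF control, and 245 in WT + lubiprostone and 1224 in WT control. On each of the 3 probe sets both treated pools were below both control pools, by 3.83-fold to 7.08-fold in CF and by 3.75-fold or more in WT. The gene averaged 4.93-fold lower in CF and 4.41-fold lower in WT, with an SD between probe sets of 0.46 and 0.21 on the log2 scale. Hspa1a and Hspa1b are near-identical copies that can share probes, so their signals are not independent and may be read as one.

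Hsph1, which recharges HSP70 with ATP, has 2 probe sets. The first, 1425993_a_at, had 411 in CF + lubiprostone and 1892 in CF control, and 543 in WT + lubiprostone and 1866 in WT control. The second, 1423566_a_at, had 302 in CF + lubiprostone and 1723 in CF control, and 335 in WT + lubiprostone and 1150.4 in WT control. The gene was 5.12-fold lower in CF and 3.43-fold lower in WT, and again no treated pool reached a control pool. Among all genes ranked from the lowest ratio, Hsph1 stood at 38, Hspa1b at 42 and Hspa1a at 57 of 11795 in CF. In WT the places of Hspa1b, Hspa1a and Hsph1 were 37, 40 and 49 of 11691.

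Hsp90aa1, which folds kinases and steroid receptors, has 3 kept probe sets. Its brightest, 1438902_a_at, had signals of 8349.9 in CF + lubiprostone and 12366 in CF control, and of 7701 in WT + lubiprostone and 10564 in WT control. On 1426645_at they were 3014 in CF + lubiprostone and 6111 in CF control, and 2949 in WT + lubiprostone and 4782 in WT control. On 1437497_a_at they were 2751 in CF + lubiprostone and 4744 in CF control, and 2400.4 in WT + lubiprostone and 3811 in WT control. All 3 were lower with lubiprostone in both genotypes, by 1.48-fold to 2.03-fold in CF and by 1.37-fold to 1.62-fold in WT. The log2 ratio passed 1.5-fold as a mean of probe sets, and with the brightest probe set alone it was -0.57 in CF and -0.46 in WT, just short of it.

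Cirbp, a cold-inducible RNA-binding protein that stabilizes transcripts, had signals of 1343 in CF + lubiprostone and 298 in CF control, and of 1229.8 in WT + lubiprostone and 497 in WT control. Its treated pools were close to each other and above both control pools, in the opposite sense to Hspa1a, Hspa1b and Hsph1. Ranked from the highest ratio, Cirbp stood at 54 of 11795 genes in CF and at 96 of 11691 in WT, from 1 probe set. The probe sets listed for both Rbm3 and Rbm3-ps did not agree. On 1422660_at the signals were 10154 in CF + lubiprostone and 8395 in CF control, and 9552 in WT + lubiprostone and 5242 in WT control, so that treated pools were 1.21-fold higher in CF and 1.82-fold higher in WT. On the dimmer 1429169_at they were 221 in CF + lubiprostone and 419 in CF control, and 198 in WT + lubiprostone and 388 in WT control, so that treated pools were lower in both genotypes. No value can be given for Rbm3 itself.

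**Figure D1:**
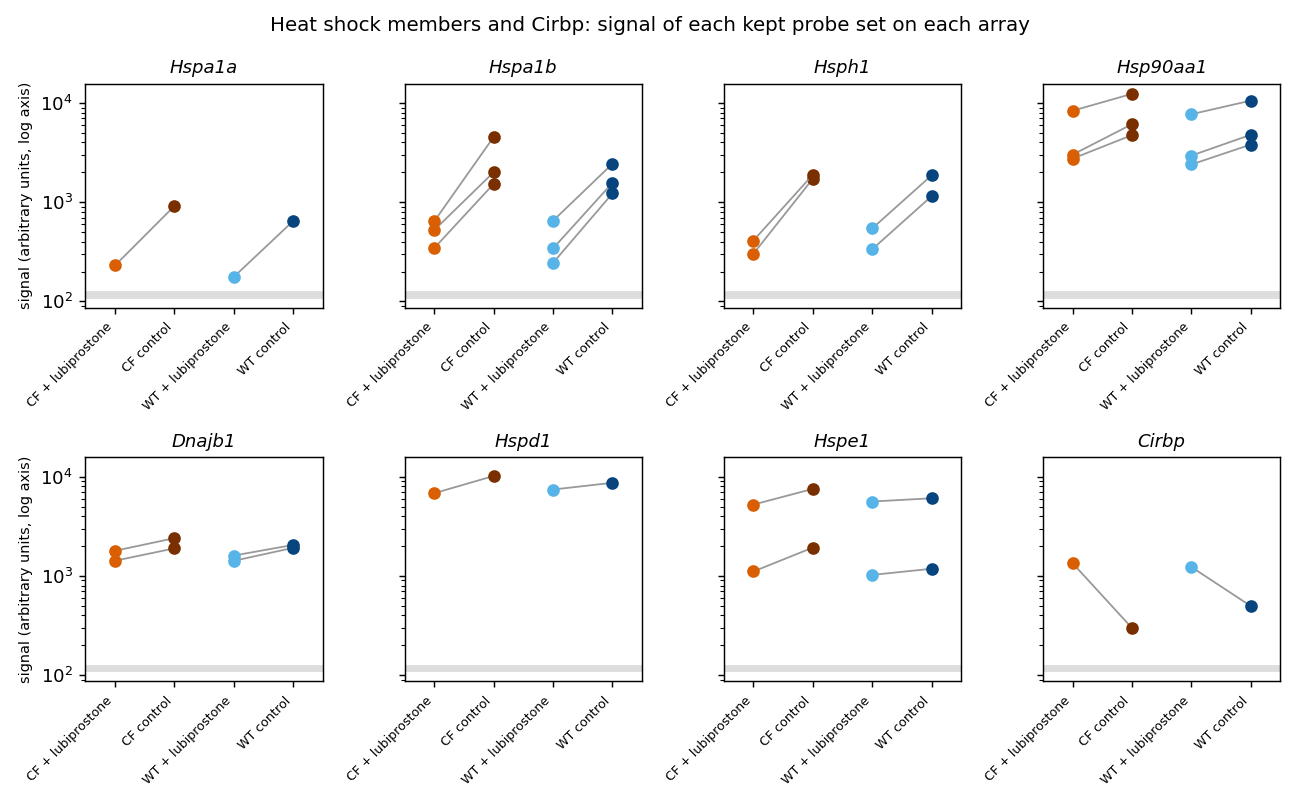
Signal of each kept probe set of 7 heat shock members and of Cirbp on each array, in arbitrary units on a log axis. Each point is 1 array of pooled RNA, grey lines join the treated and control pools of one genotype, and the grey band is the range of the arrays' medians. Hspa1a, Hspa1b and Hsph1 are low in both treated pools and Cirbp is high in both, at 1343 and 1229.8 against 298 and 497.

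Counted over the members, 6 of 37 were 1.5-fold lower or more with lubiprostone in CF (16.2%), where 6.43% of all genes were, and 4 were at least 1.5-fold higher (10.8%), where 9.43% of all genes were. In WT 5 of 35 were lower (14.3%), where 5.07% of all genes were, and 1 was higher, where 4.46% of all genes were. The 3 members at least 3-fold lower compare with 0.738% of all genes in CF and 0.573% in WT. Hspa1a and Hspa1b are counted as separate members in these shares and below, though their signals are not independent. Cirbp alone was 3-fold higher in CF, where 0.941% of all genes were, and no member was in WT, where 0.488% of all genes were. The 6 lower in CF were Hspa1a, Hspa1b, Hsph1, Hsp90aa1, Dnaja3 and Hspe1, and with the brightest probe set alone the last 3 did not reach 1.5-fold. The 5 lower in WT were Hspa1a, Hspa1b, Hsph1, Hsp90aa1 and Dnaja4, the last a dim J protein, at 113 in WT + lubiprostone and 179 in WT control, whose fold is at least 1.46 because the treated signal was under the array's median. The 4 higher in CF were Cirbp, Hspa2, Hspb2 and Hspb7. The last 3 are dim and were named after their values were seen, and with dim signals set to the median only Cirbp and Hspa2 stayed at 1.5-fold. The median log2 ratio was -0.15 over the members and 0.013 over all genes in CF, and -0.16 over the members and -0.0034 over all genes in WT.

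The 2 lubiprostone comparisons share no array, so a gene can be followed from one into the other. Of 11227 genes with a ratio in both, 18 (0.16%) were at least 3-fold lower in both, and 3 of these were members, out of 34 members with a ratio in both. The 15 others were Cyp1a1, Gsdmc2 and, for all the rest, genes known from the pancreas. The pancreatic ones were 2210010C04Rik, Cel, Cela2a, Cela3b, Cpa1, Cpb1, Ctrb1, Ctrl, Cuzd1, Pla2g1b, Pnliprp1, Prss2 and Sycn. At 1.5-fold, 4 members, Hsp90aa1 with the 3 before, were lower in both, against 0.891% of all genes, and Cirbp was higher in both, against 0.873% of all genes. No member was 3-fold higher in both, where 0.0267% of all genes were. Across the 34 members the log2 ratios in CF and WT correlated with r = 0.90 (Pearson) and rho = 0.63 (Spearman). Without Hspa1a, Hspa1b, Hsph1 and Cirbp these were 0.42 and 0.46 over 30 members, and over all 11227 genes they were 0.19 and 0.19. These are descriptions across genes measured on the same arrays. Pancreatic RNA moved with the treatment too. Of the 5 listed pancreas markers, the 3 with a probe set had summed signals of 3739 in CF + lubiprostone and 14169 in CF control, and of 1317 in WT + lubiprostone and 13468 in WT control. The part of this tissue in the chaperone ratios was not tested.

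**Figure D2:**
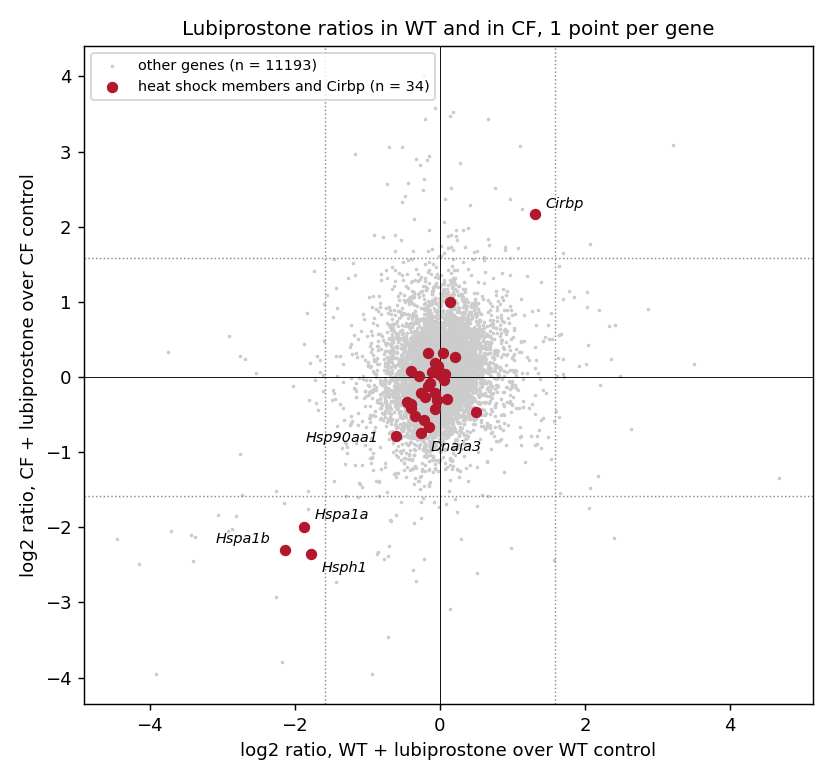
Log2 ratio of WT + lubiprostone over WT control (x axis) and of CF + lubiprostone over CF control (y axis), 1 point per gene, with members in red, other genes in grey and dotted lines at 3-fold. Hspa1a, Hspa1b and Hsph1 lie beyond 3-fold lower in both genotypes, Cirbp lies at 1.31 and 2.17, and the other members lie nearer to 0.

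The other HSP70s and exchange factors of the cytosol had ratios between 0.728 and 1.25, apart from Hspa2 in CF. Hspa8, the constitutive HSP70, had ratios of 0.797 in CF and 0.728 in WT, and its 4 probe sets did not move as one. On the brightest, 1455789_x_at, signals were 25816 in CF + lubiprostone and 27439 in CF control, and 21677 in WT + lubiprostone and 25833 in WT control. On 1420622_a_at they were 7622 in CF + lubiprostone and 8758 in CF control, and 8806 in WT + lubiprostone and 14282 in WT control, so that WT control stood apart from the 3 other pools. On the dimmer 1431182_at they were 292 in CF + lubiprostone and 508 in CF control, and 308 in WT + lubiprostone and 519 in WT control, with both treated pools low. Hspa4, an exchange factor that is not strongly heat-induced, had signals of 3978 in CF + lubiprostone and 3764 in CF control, and of 3592 in WT + lubiprostone and 3199.8 in WT control on 1416146_at, with ratios of 1.04 in CF and 0.928 in WT over 4 probe sets. Hspa4l, its close relative, had ratios of 0.783 in CF and 0.755 in WT. Bag3, an exchange factor that steers clients to autophagy and a known heat shock factor target, stayed level, with signals of 798 in CF + lubiprostone and 786 in CF control, and of 676 in WT + lubiprostone and 677 in WT control. Hspa14, which works at the ribosome, had ratios of 1.05 in CF and 0.758 in WT from probe sets that disagreed, with an SD of 0.63 and 0.62 on the log2 scale. Hspa2, an HSP70 best known from the testis, had 379 in CF + lubiprostone and 189 in CF control, and 255 in WT + lubiprostone and 231 in WT control, so that the treated CF pool was apart, more than 1.5-fold above CF control.

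Among the J proteins, Dnajb1, the main partner of inducible HSP70, was modestly low in both treated groups. On 1416755_at it had 1794 in CF + lubiprostone and 2402 in CF control, and 1605 in WT + lubiprostone and 2053 in WT control. On 1416756_at it had 1424 in CF + lubiprostone and 1896 in CF control, and 1419.8 in WT + lubiprostone and 1920.1 in WT control. The gene was 1.34-fold lower in CF and 1.32-fold lower in WT, under the 1.5-fold used here, with the treated pools below the control pools on both probe sets. Dnaja1, a farnesylated J protein, had on 1416288_at signals of 7648 in CF + lubiprostone and 10488 in CF control, and of 8301 in WT + lubiprostone and 9352 in WT control. Over 3 probe sets its ratios were 0.830 in CF and 0.864 in WT. Between control pools they disagreed, at 1.12, 0.507 and 0.695. The other 9 J proteins with a kept probe set are those not grouped here with the mitochondrial or ER chaperones. Their log2 ratios lay between -0.30 and 0.26 in CF where they could be taken. In WT they lay between -0.67 and 0.21, the lowest being Dnaja4.

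Of the 4 mitochondrial chaperones Dnaja3 and Hspe1 were 1.5-fold lower or more with lubiprostone in CF and none in WT. With the brightest probe set alone neither was, at log2 ratios of -0.43 and -0.52. Against WT control the CF control pool had a median log2 ratio of 0.37 over the 4 genes, and CF + lubiprostone against WT + lubiprostone had one of 0.013. Hspd1, the HSP60 of the folding chamber, had signals of 6822 in CF + lubiprostone and 10172 in CF control, and of 7429 in WT + lubiprostone and 8681 in WT control. It was 1.49-fold lower in CF and 1.17-fold lower in WT. Its lid Hspe1 had 5239 in CF + lubiprostone and 7536 in CF control, and 5625 in WT + lubiprostone and 6066 in WT control on 1450668_s_at. On 1422579_at the signals of Hspe1 were 1109 in CF + lubiprostone and 1931 in CF control, and 1024 in WT + lubiprostone and 1182 in WT control. For both genes CF control was the highest of the 4 pools. Dnaja3, the mitochondrial J protein, had a log2 ratio of -0.74 in CF and -0.26 in WT. Its probe set 1420629_a_at had 468 in CF + lubiprostone and 973 in CF control, and 454 in WT + lubiprostone and 586 in WT control. On 1449935_a_at it had 1160.4 in CF + lubiprostone and 1567 in CF control, and 1131 in WT + lubiprostone and 1258 in WT control, so that the fold in CF was 2.08 on the first and 1.35 on the second. Hspa9, the mitochondrial HSP70, had 3701 in CF + lubiprostone and 4586 in CF control, and 3772 in WT + lubiprostone and 3556 in WT control on 1418504_at. Over its 4 kept probe sets it had ratios of 0.861 in CF and 0.950 in WT. All 4 of these genes had a ratio below 1 in both genotypes, with a median log2 ratio of -0.62 in CF and -0.19 in WT. In WT the log2 ratio of Hspa9 was 0.69 without a filter and 0.085 with the brightest probe set alone. A list of 6 other mitochondrial quality control genes had medians of -0.093 in CF and 0.011 in WT and no gene at 1.5-fold. Of all genes 9.43% were higher and 6.43% lower in CF, and 4.46% and 5.07% in WT.

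ER chaperones stayed nearer to level. Hspa5 (BiP), the ER HSP70, had on its brightest probe set signals of 16934 in CF + lubiprostone and 21294 in CF control, and of 16492 in WT + lubiprostone and 17056 in WT control. Over its 3 probe sets the gene was 1.35-fold lower in CF and 1.05-fold lower in WT. Hsp90b1, the ER HSP90, was 1.43-fold lower in CF and 1.27-fold lower in WT. Its signals were 9993 in CF + lubiprostone and 11976 in CF control, and 9885 in WT + lubiprostone and 10827 in WT control on 1415889_a_at. On 1438040_a_at they were 3219.8 in CF + lubiprostone and 5521 in CF control, and 3197 in WT + lubiprostone and 4708 in WT control, a wider gap in both genotypes. Dnajb9 and Dnajb11, J proteins of the ER, had log2 ratios between -0.16 and -0.08 in either genotype. All 5 members grouped here as ER chaperones had ratios below 1 in CF and none reached 1.5-fold. Of 15 listed ER folding and stress genes, 1 was 1.5-fold higher and 1 lower in CF and none in WT, with medians of -0.17 and -0.048. Of all genes 9.43% were higher and 6.43% lower in CF, and 4.46% and 5.07% in WT.

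Small heat shock proteins, which hold unfolded proteins without ATP, split. With lubiprostone 4 of 6 had ratios above 1 in CF and 2 below, with a median log2 ratio of 0.24. In WT 1 of 4 was above and 3 below, with a median of -0.094. Those above 1 in CF, Hspb2, Hspb7, Hspb8 and Hspb11, did not reach the 75th percentile of any array. Hspb1, the most widely expressed of them, had 1308 in CF + lubiprostone and 1625 in CF control, and 809.9 in WT + lubiprostone and 1158 in WT control on 1422943_a_at. On 1425964_x_at it had 825 in CF + lubiprostone and 889 in CF control, and 627 in WT + lubiprostone and 631 in WT control, so that both CF pools were above both WT pools on either probe set. Hspb6, a small heat shock protein of smooth muscle, had 522 in CF + lubiprostone and 720.4 in CF control, and 712 in WT + lubiprostone and 503 in WT control. It was thus lower with lubiprostone in CF and higher in WT. The smooth muscle markers had summed signals of 31899 in CF + lubiprostone and 44235 in CF control, and of 35161 in WT + lubiprostone and 32326 in WT control. Of the 10 markers 9 had ratios below 1 in CF and 9 above 1 in WT, and their part in the Hspb6 ratios was not tested. The 6 listed mast cell markers, of which 5 passed the filter, had summed signals of 1248 in CF + lubiprostone and 10465 in CF control, and of 809 in WT + lubiprostone and 1176 in WT control. Their part in the chaperone ratios of CF mice was not tested.

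**Figure D3:**
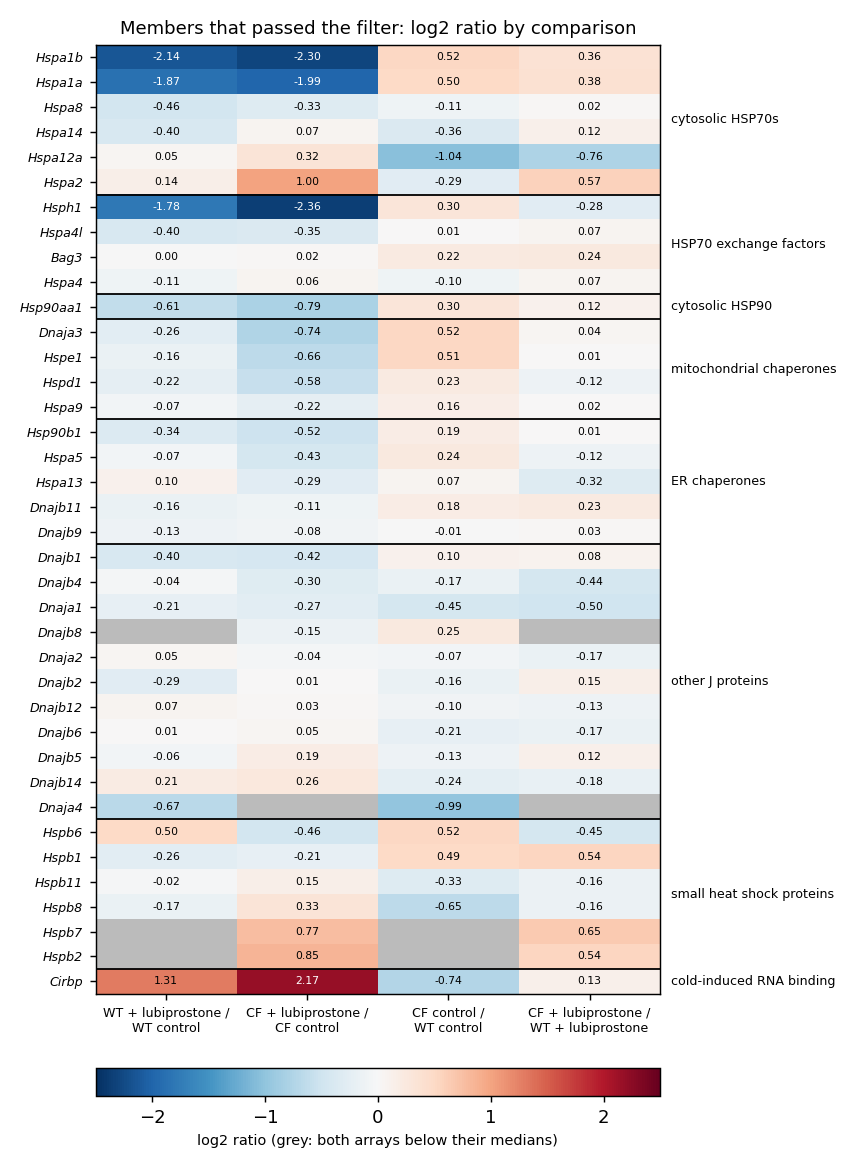
Log2 ratio of each of the 38 members that passed the filter (rows, grouped by role) in the 4 comparisons (columns), in blue where lower and in red where higher in the first-named pool, and in grey where no kept probe set reached the median on an array compared. The darkest cells are Hspa1a, Hspa1b, Hsph1 and Cirbp in the lubiprostone columns, and all 4 mitochondrial chaperones are below 0 in both of these columns, where Hspa9 in WT turns to 0.69 without a filter and to 0.085 with the brightest probe set alone.

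Partners of these chaperones outside the members were read from lists of genes. Of 12 HSP90 and HSP70 partners Chordc1 and Stip1 were at least 1.5-fold lower and Fkbp5 higher with lubiprostone in CF. In WT Chordc1 and Unc45a were lower and Cdc37 higher. Of all genes 9.43% were higher and 6.43% lower in CF, and 4.46% and 5.07% in WT. Unc45a, a myosin and HSP90 cochaperone, had log2 ratios of 0.47 in CF and -0.65 in WT. Its brightest probe set had 676 in CF + lubiprostone and 599 in CF control. In WT that probe set had 614 with lubiprostone and 583 without, so it was not lower there. Cdc37, which brings kinases to HSP90, had log2 ratios of 0.040 in CF and 1.70 in WT. In WT its brightest probe set had 2350 with lubiprostone and 2134 without, so the 1.70 rests on its other probe set. Chordc1, an HSP90 cochaperone that is itself heat-induced, had signals of 1032 in CF + lubiprostone and 2159.9 in CF control, and of 924 in WT + lubiprostone and 1759.9 in WT control on its brightest probe set. Its log2 ratio was -1.06 in CF and -0.93 in WT. Stip1, which bridges HSP70 and HSP90, had log2 ratios of -0.63 in CF and -0.55 in WT. Fkbp5, an HSP90 cochaperone induced by glucocorticoids, had log2 ratios of 1.44 in CF and -0.32 in WT, a difference that was not tested. Its brightest probe set had 4085 in CF + lubiprostone and 1573.5 in CF control. In WT that probe set had 1377 with lubiprostone and 1259 without, so it was not lower there. Serpinh1, the collagen chaperone HSP47 and a heat shock factor target, had 625 in CF + lubiprostone and 1479 in CF control, and 632 in WT + lubiprostone and 1219 in WT control on its brightest probe set. The gene had log2 ratios of -1.08 in CF and -0.50 in WT. It is from a list of heat shock factor targets outside the members. Of 7 with a ratio in CF, Serpinh1, Chordc1 and Cryab were at least 1.5-fold lower with lubiprostone, and Mt2 and Hmox1 higher. In WT 1 of 6, Chordc1, was lower and none higher. The medians of this list were -0.25 in CF and -0.12 in WT. The 8 subunits of the CCT chaperonin, which folds actin and tubulin, had no gene at 1.5-fold in either genotype and medians of -0.11 in CF and 0.019 in WT. Immediate early genes, which respond within minutes to handling and stress, also had none at 1.5-fold in CF and 1 of 8 lower in WT, with medians of 0.29 and 0.031.

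Clock genes were read because Cirbp and several chaperones vary over the day. Of 13 clock genes 6 were higher by 1.5-fold or more with lubiprostone in CF and none lower, with a median log2 ratio of 0.55. Of all genes 9.43% were higher and 6.43% lower. In WT 2 clock genes were higher and none lower, with a median of 0.17, where 4.46% of all genes were higher and 5.07% lower. In CF control over WT control 5 clock genes were lower and 1 higher, with a median of -0.51, and Cirbp had -0.74. Of all genes 11.8% were lower and 7.95% higher there. Ciart, counted as higher in WT and in CF control, had a WT control signal of 48, under that array's median of 124. The times of day at which the tissues were taken are not given in the sources used here, and the part of the clock in the Cirbp and chaperone ratios was not tested.

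**Figure D4:**
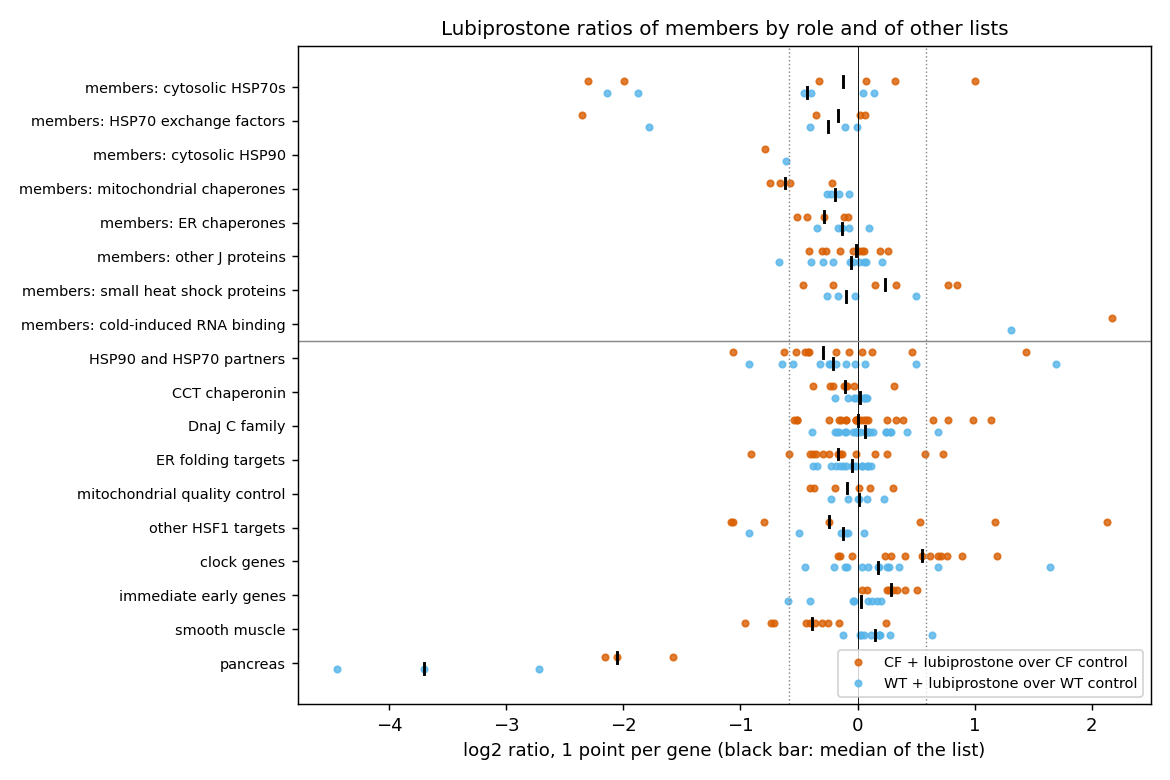
Log2 ratio of each gene with lubiprostone in CF (orange) and WT (blue), for members by role above the grey line and for other gene lists below it, with a black bar at the median of each list of more than 1 gene and dotted lines at 1.5-fold. The mitochondrial chaperones have medians of -0.62 in CF and -0.19 in WT, and the clock genes 0.55 and 0.17.

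In CF control over WT control no member of 36 was 1.5-fold higher or more, where 7.95% of all genes were, and 4 were lower (11.1%), where 11.8% of all genes were. None was 3-fold different, where 1.16% of all genes were higher and 1.82% lower by that much. Over all genes 939 were higher and 1388 lower at 1.5-fold as deposited, and 1678 and 922 when scaled to the same median. Of the members 6 were higher and 2 lower when scaled in this way, Hspa1a, Hspa1b, Hspe1, Hspb1 and Dnaja3 among those higher. For CF + lubiprostone over CF control these were 1112 and 758 as deposited, and 771 and 1212 when scaled. The 4 members lower in CF control were Cirbp, Hspa12a, Hspb8 and Dnaja4, and all but Cirbp are dim and named after their values were seen. Hspa12a, a distant HSP70 relative, had 266 in CF + lubiprostone, 224 in CF control, 440.3 in WT + lubiprostone and 411 in WT control on 1436961_at, with both CF pools below both WT pools. The gene was 2.06-fold lower in CF among control pools and 1.70-fold lower in CF among treated pools. Hspb8, which works with Bag3, was 1.57-fold lower in CF control. Dnaja4 was at least 1.64-fold lower there, its CF signal being under the array's median.

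Hspa1a, Hspa1b and Hsph1 had ratios above 1 in CF control over WT control, short of 1.5-fold as deposited. Scaled to the same median, Hspa1a and Hspa1b passed it, with log2 ratios of 0.68 and 0.70. Hspa1a had a ratio of 1.42, Hspa1b of 1.44 and Hsph1 of 1.23, and the probe sets of Hspa1b ranged from 1.25 to 1.86 and those of Hsph1 had log2 ratios of 0.02 and 0.58. Hspe1 and Dnaja3 had log2 ratios of 0.51 and 0.52, and Hspb1 had a ratio of 1.41. Since the CF control array stands in this comparison and in the lubiprostone comparison of CF mice, a high value on that array enters both. In the treated pools, which do not use it, CF + lubiprostone over WT + lubiprostone was 1.31 for Hspa1a, 1.29 for Hspa1b, 0.826 for Hsph1, 1.03 for Dnaja3 and 1.46 for Hspb1, and the log2 ratio of Hspe1 was 0.01. In that comparison 1 member of 36 was at least 1.5-fold higher, where 8.22% of all genes were, and 1 was lower, where 8.86% of all genes were, and none differed by 3-fold, where 1.27% of all genes were higher and 1.25% lower. These were Hspb7, whose 2 kept probe sets are below the median in WT + lubiprostone, and Hspa12a. The medians over the members were -0.00023 between the control pools and 0.028 between the treated pools, against -0.017 and 0.0026 over all genes.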

How the data were processed

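Each of 4 pools of RNA was run on 1 array. The deposited values are intensities, signals that the authors extracted with GCOS (MAS5) and scaled per array; they are linear and carry no detection calls. Versions are not given in the sources used here. Of 45101 probe sets 34958 carry 1 symbol, 932 several and 9211 none in the platform annotation, and those with several were left out of all counts. Probe sets under the median of every array were set aside, which left 12259 genes, and a gene's ratio needed a kept probe set at the median on an array compared. Log2 ratios of kept probe sets were averaged per gene. Folds given as measured use the signals as deposited. No test was possible with 1 array per group, and the precision is limited by that number.

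Members, roles and lists were chosen with earlier results of these data known, and the 2-unit heat shock element was added after the values were seen. By rule, signals on the brightest probe set or on several are given for 17 members. These are the best known ones, and any other at 1.5-fold in a comparison that reached the 75th percentile of an array. Outside this rule signals are also given for Hspa2, Hspa12a, Hspb6, Dnaja4 and Dnajb3. Others are named as members of small counts or for opposite directions. The 6 alternatives were quantile normalization, arrays scaled to one median, a stricter filter at the 75th percentile or none, the brightest probe set per gene, and raising dim signals to the median. The steps were tested on simulated data. Python 3.11 was used.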

Additional observations from a re-analysis of the deposited data

Results flagged for a closer look

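Members whose ratio ran in opposite directions, by at least 1.2-fold each way, are listed here, and with 1 array per group none of these differences was tested. Hspb6 had a log2 lubiprostone ratio of -0.46 in CF and 0.50 in WT, a difference of -0.97. The same signals gave a CF over WT log2 ratio of -0.45 in treated mice and 0.52 in controls, again a difference of -0.97. Hspa2 had a CF over WT log2 ratio of 0.57 in treated mice and -0.29 in controls, a difference of 0.86, from signals below the 75th percentile. Hsph1 had a CF over WT log2 ratio of -0.28 in treated mice and 0.30 in controls, a difference of -0.58, and its probe sets in controls lay at 0.02 and 0.58.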

How the results depend on the processing

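Under all 6 alternatives Hspa1a, Hspa1b and Hsph1 were the members at least 3-fold lower in both lubiprostone comparisons, among 14 to 113 genes, the highest number being without a filter. The log2 ratio of Cirbp stayed between 2.04 and 2.17 in CF and between 1.31 and 1.34 in WT. Of 72 values of medians and counts over the members, 57 moved by less than the spread between probe sets (medians) or 1.5 times (counts), and 15 counts moved more. Members 1.5-fold higher between control pools, CF over WT, 0 as deposited, were 6 when scaled to the same median, 4 with no filter and 1 with the brightest probe set. The matching counts over all genes were 1678 of 11806, 2582 of 18194 and 966 of 11795. Members lower between control pools, 4 as deposited, were 2 when scaled and 1 with a filter at the 75th percentile. Over all genes these were 922 of 11806 and 556 of 7149. With no filter all 45 members had a ratio. Members higher with lubiprostone in WT, 1 as deposited, were 7 with no filter, where 2627 of 18194 genes were. Members higher with lubiprostone in CF, 4 as deposited, were 8 with no filter, 1 at the 75th percentile and 2 with dim signals set to the median. In the same order, the genes higher were 3636 of 18194, 351 of 7112 and 726 of 11795. In CF + lubiprostone over WT + lubiprostone, members higher, 1 as deposited, were 2 when scaled, 4 with no filter, and 0 both at the 75th percentile and with dim signals set to the median. Genes higher under these settings were 1080 of 11792, 3040 of 18194, 416 of 7106 and 628 of 11792. Members lower there, 1 as deposited, were 4 with no filter and 2 with the brightest probe set, where 3265 of 18194 and 1015 of 11774 genes were. Of the log2 ratios of single named members 388 were unmoved and 19 moved. None that was past 1.5-fold as deposited changed sign, but Hspa9 with lubiprostone in WT, at -0.074 as deposited, was at 0.69 with no filter. With the brightest probe set alone Dnaja3, Hspe1 and Hsp90aa1 were at -0.43, -0.52 and -0.57 with lubiprostone in CF, under 1.5-fold. No paired analysis was possible because each group has 1 array. Dim members near the arrays' medians carry little information here.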

Other observations

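Some other stress genes on the lists were higher with lubiprostone in CF. Hmox1, which breaks down haem and is induced by oxidants, had signals of 452 in CF + lubiprostone, 103 in CF control, 109 in WT + lubiprostone and 122 in WT control, so that only the treated CF pool was above its array's median. The metallothionein gene Mt2, which binds zinc and copper, had a log2 ratio of 1.17 in CF + lubiprostone over CF control and of 0.054 in WT + lubiprostone over WT control. Atf4, a transcription factor of the integrated stress response, had log2 ratios of 0.58 in CF and 0.037 in WT, and Herpud1, an ER degradation gene, of 0.73 in CF and -0.037 in WT. Others were lower. Sdf2l1, an ER cochaperone, had -0.91 in CF and -0.13 in WT. Cryab, a small heat shock protein outside the members and a smooth muscle and lens gene, had signals of 198 in CF + lubiprostone and 420 in CF control, and of 303 in WT + lubiprostone and 404 in WT control. Of 23 genes of the DnaJ C family 4 were at least 1.5-fold higher and none lower with lubiprostone in CF (17.4% higher), where 9.43% of all genes were higher and 6.43% lower. In WT 1 was higher (4.35%) and none lower, where 4.46% of all genes were higher and 5.07% lower.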
